A study of Mus musculus with 16 samples.

Results

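The regions described here are the ATAC-seq peaks at and around 6 mouse genes, the 3 E protein genes Tcf3, Tcf4 and Tcf12 and the 3 Id genes Id1, Id2 and Id3. Peaks of the 4 thymocyte stages were merged where they shared at least 1 base, and every merged region that touched a gene body or the 50 kb on either side was taken. This gave 267 regions of 185978 in the whole series, 166 at the E protein genes and 101 at the Id genes, made of 722 peaks. The series profiled open chromatin in sorted thymocytes of 4 wild-type C57BL/6J mice aged 9 weeks, with 16 libraries. The stages were double negative cells (DN, without CD4, CD8 and CD3), double positive cells (DP, with CD4 and CD8) and the single positive cells SP4 and SP8, which carried CD3 and either CD4 or CD8; cells with surface markers of erythroid, B, myeloid, dendritic, natural killer or gamma delta T cells were gated out. DN is a mixture of immature steps, and DP includes cells before and after selection. Before calling peaks the authors reduced deeper libraries to the median depth and combined the 4 mice, so that each stage has 1 list and the spread between mice is not known. Hence no test was possible, and the intervals given with shares are 95% Wilson intervals, which cover counting error only and treat neighbouring regions as independent.

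E proteins are basic helix-loop-helix transcription factors that bind short DNA elements called E-boxes as dimers. Tcf3 encodes E2A, Tcf12 encodes HEB and Tcf4 encodes E2-2. In thymocytes E2A and HEB act together at genes of antigen receptor rearrangement and of the pre-T cell receptor, and E2-2 is best known for its role in plasmacytoid dendritic cells. Id proteins share the helix-loop-helix but lack the basic region that touches DNA, so that an E protein bound by an Id protein is kept off its sites. Id3 is induced by T cell receptor signals through EGR factors, Id2 is known from innate lymphoid and natural killer cells, and Id1 is a classical target of BMP signalling through SMAD factors.

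The sequences of the regions on which the description turns are shown first, as 100 bases around the summit of the highest peak of each region (mm10, plus strand, 5′ to 3′). Capitals mark exact matches, on either strand, to 12 short motifs: CAGCTG as the first E-box letters, CAGGTG as the second and CAGATG as the last, TGNGGT for RUNX, AGATAA for GATA factors, CAGGAA as the first and CCGGAA as the second form for ETS, CTTTGNT for TCF7 and LEF1, GTGGGNG for EGR, GGCGCC for SMAD, TTCNNNGAA for STAT and AGGGGGC for the core of CTCF. Windows of different motifs can overlap. The first is from the start-site region of Tcf3, at chr10:80434028-80434127. Its printed bases surround the summit and hold no start site, since the start sites covered by this region lie at chr10:80433621-80433647. The next is a region at -37.3 kb that was called only at DN, at chr10:80470935-80471034.
Tcf3 start site: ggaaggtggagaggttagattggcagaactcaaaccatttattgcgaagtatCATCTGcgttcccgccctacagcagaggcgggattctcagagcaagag
Tcf3 -37.3 kb: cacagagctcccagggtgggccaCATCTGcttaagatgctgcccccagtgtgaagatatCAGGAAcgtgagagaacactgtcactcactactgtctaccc
For Tcf12 these are the intronic region called at DN and DP (chr9:71986849-71986948), the intronic region called at every stage but DP (chr9:71905425-71905524) and one of the regions over the inner start sites (chr9:71896470-71896569). The bases printed for the last of these hold no start site.
Tcf12 125 kb: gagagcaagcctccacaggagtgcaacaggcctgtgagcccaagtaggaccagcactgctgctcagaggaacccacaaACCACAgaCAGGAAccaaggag
Tcf12 206.4 kb: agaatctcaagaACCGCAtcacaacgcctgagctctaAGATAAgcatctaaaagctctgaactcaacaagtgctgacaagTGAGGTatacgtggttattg
Tcf12 inner start site: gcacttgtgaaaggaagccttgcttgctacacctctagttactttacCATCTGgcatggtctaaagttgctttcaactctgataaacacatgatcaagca
For the Id genes these are regions upstream of Id2 (chr12:25108925-25109024), Id3 (chr4:136121297-136121396 and chr4:136106929-136107028) and Id1 (chr2:152724001-152724100), each among the 2 regions of largest range in height of its gene; the other such regions of Id1 (46.2 kb) and Id2 (34.7 kb) are not shown.
Id2 -11.8 kb: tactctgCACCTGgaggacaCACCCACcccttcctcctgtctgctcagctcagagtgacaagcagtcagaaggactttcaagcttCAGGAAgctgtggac
Id3 -22.2 kb: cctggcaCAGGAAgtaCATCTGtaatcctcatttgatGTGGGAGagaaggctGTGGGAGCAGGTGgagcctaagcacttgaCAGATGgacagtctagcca
Id3 -36.5 kb: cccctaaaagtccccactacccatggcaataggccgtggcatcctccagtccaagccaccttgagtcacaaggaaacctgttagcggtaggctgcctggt
Id1 -12.2 kb: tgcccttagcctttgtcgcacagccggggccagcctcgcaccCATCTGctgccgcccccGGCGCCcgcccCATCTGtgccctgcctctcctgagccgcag
The Id3 region at -22.2 kb held 6 matches, of which 3 were E-boxes, while the Id3 region at -36.5 kb held none of the 12 motifs in this window. The Tcf12 region at 125 kb held a RUNX and an ETS match, and the one at 206.4 kb held a pair of RUNX matches and a GATA match.

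Distances here are from the 5′ end of the gene to the summit, negative upstream. The height of a region at a stage is the percentile of its highest peak among all peaks of that stage, ranked by fold enrichment over the local background, because the fold enrichments of the lists were not scaled to each other. The lists differ in length, so heights are not fully comparable between stages. Over all regions of the series called at all 4 stages, the median height was 73.5 at DN, 68.2 at DP, 69.4 in SP4 and 67.1 in SP8. Heights were not recomputed with lists of equal length. Where no peak was called, signal below the threshold of the caller may still be there.

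The E protein genes had more of their regions at DN than at any other stage. Of their 166 regions, 135 (81.3%, 74.7 to 86.5) had a peak at DN, against 75.7% of all regions of the series. At DP this was 104 (62.7%, 55.1 to 69.6) against 53.9%, and at SP4 92 (55.4%, 47.8 to 62.8) against 58.3%. At SP8 it was 80 (48.2%, 40.7 to 55.7) against 53.0%. The Id genes were more even, with 73 of 101 regions at DN (72.3%, 62.9 to 80.1), 69 at DP (68.3%, 58.7 to 76.6), 59 in SP4 (58.4%, 48.7 to 67.5) and 60 in SP8 (59.4%, 49.7 to 68.5). For both families the share at DP lay above that of all regions by more than the interval, and for the other stages the share of all regions lay within the Id gene interval. Gene windows in general had more regions at DP, however. Over 14933 coding genes with at least 10 regions in their own window, the median share at DP was 60%, within the interval of both families. This median was 80% at DN, 61.9% in SP4 and 58.3% in SP8. The DN list is also the longest, with 150139 peaks against 107110 at DP, 115074 in SP4 and 104411 in SP8. With the same number of peaks from each list, the highest by q-value, the share of E protein gene regions was 65.5% at DN, 71.2% at DP, 59.0% in SP4 and 57.6% in SP8, beside 62.6% to 63.3% for all regions. DN thus no longer led DP at the E protein genes, and DP was then the highest stage in both families (74.2% of the Id gene regions). Equal numbers drop the lowest-ranked DN peaks by construction, and the part of list length was not tested. Single genes differed from their family. Tcf3 kept its lead at DN (77.8% beside 66.7% at DP), and Id2 was highest at SP8 (75% beside 70% at DP).

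**Figure D1:**
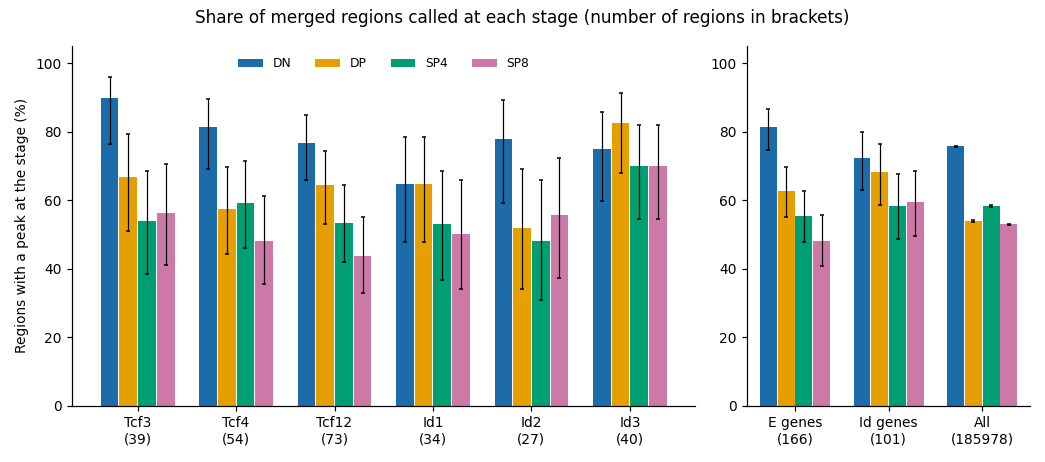
Share of merged regions with a peak at each stage, for each gene (left) and for the E protein genes, the Id genes and all regions of the series (right); bars start at 0, whiskers are 95% Wilson intervals for counting error, and the number of regions is in brackets. Tcf3 had the highest share at DN (89.7%) and Id3 the highest at DP (82.5%), and Tcf12 fell from 76.7% at DN to 43.8% at SP8.

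Gene by gene, the share at DN ran in the order Tcf3 (89.7%), Tcf4 (81.5%), Id2 (77.8%), Tcf12 (76.7%), Id3 (75%) and Id1 (64.7%), and the intervals of all neighbours in this order overlapped. At SP8 the order was Id3 (70.0%), Tcf3 (56.4%), Id2 (55.6%), Id1 (50%), Tcf4 (48.1%) and Tcf12 (43.8%), again with overlapping intervals of neighbours. Id3 stood at the top at DP, with 33 of 40 regions (82.5%, 68.1 to 91.3), and it kept the same share of 82.5% with equal numbers of peaks. Shares were also ranked among the 14933 protein-coding genes with at least 10 regions in their own window. At DP, 97.0% of these genes had a share below that of Id3, the most extreme of the ranks. For the other genes described here, the rank at DP ran from 29.2% (Id2) to 72.8% (Tcf3). Ranks ran from 18.1% (Tcf12) to 80.7% (Id3) at SP8, and from 16.1% (Id2) to 74.1% (Id3) at SP4. At DN the ranks of Tcf4, Tcf12, Id2 and Id3 lay between 32.2% (Id3) and 55.5% (Tcf4). Tcf3 ranked higher at DN (82.6%) and Id1 lower.

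A core of the regions was open throughout. Peaks at all 4 stages were found in 98 of the 267 regions (36.7%, 31.1 to 42.6), close to 34.1% of all regions. This count was 16 for Tcf3, 22 for Tcf4, 20 for Tcf12, 12 for Id1, 9 for Id2 and 19 for Id3. Regions seen only at DN numbered 54 (20.2%, 15.8 to 25.4) beside 21.7% of all regions, and their spread over the genes was uneven. Tcf4 had 16 of them, Tcf12 15, Tcf3 9, Id2 8, Id1 5 and Id3 1. Only 2.50% of the Id3 regions (0.443 to 12.9) were thus private to DN, whereas 29.6% of those of Tcf4 and of Id2 were. Between Id2 and Id3 this difference was lost with equal numbers of peaks, at 1 DN-only region of 20 for Id2 and 1 of 40 for Id3.

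Other single-stage regions were fewer, at 16 for DP (5.99% beside 5.17% of all regions), 17 for SP4 (6.37% beside 7.39%) and 6 for SP8 (2.25% beside 4.21%). Tcf4 and Tcf12 had no region called at SP8 alone. Regions called at DN and DP and at neither single positive stage numbered 21 (7.87%, 5.20 to 11.7) beside 5.59% of all regions, and 9 of them lay at Tcf12 and 4 at Tcf3. The reverse set, called in SP4 and SP8 alone, held 5 regions (1.87%, 0.802 to 4.31) beside 3.82%.

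DN-only regions were narrow and low. Their median width at the 6 genes was 138 bp and their median height at DN was the 24.5 percentile, beside 154 bp and 30.2 for all DN-only regions of the series. The regions called at all 4 stages had a median width of 428.5 bp and a median height at DN of 64.1, below the 73.5 of all such regions. Heights above the 90th percentile at one or more stages were reached by 21 of the 267 regions (7.87%), beside 11.6% of all regions, and 5 were above it at every stage. Those 5 lay at Tcf3 (1), Tcf4 (2), Id1 (1) and Id3 (1).

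Between stages, both families, summed over their genes, lost more regions than they gained on the way from DP to the single positive cells. Exceptions were Tcf4, which lost 6 and gained 7 from DP to SP4, and Id2, which lost 3 and gained 4 from DP to SP8. At the E protein genes 33 of 166 regions (19.9%, 14.5 to 26.6) had a peak at DP and none at SP8, and 9 (5.42%, 2.88 to 9.98) had the reverse. For all regions these shares were 15.1% and 14.2%. From DP to SP4 the E protein genes lost 32 (19.3%, 14.0 to 25.9) and gained 20 (12.05%, 7.94 to 17.9), beside 13.7% and 18.1% of all regions. The Id genes went the same way, with 23 lost (22.8%, 15.7 to 31.9) and 13 gained (12.9%, 7.68 to 20.8) at SP4, and 18 lost (17.8%) and 9 gained (8.91%) at SP8. With equal numbers of peaks, 30 of 139 E protein gene regions were lost and 11 gained from DP to SP8, and 18 of 93 Id gene regions were lost and 9 gained, while over all regions 16.9% were lost and 17.3% gained. From DP to SP4 the E protein genes then lost 34 and gained 17, and the Id genes lost 25 and gained 13. Over all regions 17.1% were lost and 17.7% gained at that step. Tcf4 was then no exception, with 9 lost and 6 gained from DP to SP4. Id2 kept 3 lost and 4 gained from DP to SP8.

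The step from DN to DP was not the same with lists of equal length. At the E protein genes 47 regions (28.3%, 22.0 to 35.6) had a peak at DN and not at DP, and 16 (9.64%, 6.02 to 15.1) had the reverse, beside 30.7% and 8.86% of all regions. At the Id genes these were 19 (18.8%, 12.4 to 27.5) and 15 (14.9%, 9.21 to 23.1). With equal numbers of peaks the direction turned in the sum of each family. At the E protein genes 22 were lost and 30 gained (15.8% and 21.6%). At the Id genes 9 were lost and 19 gained (9.68% and 20.4%), while over all regions 17.1% were lost and 16.4% gained. Tcf3 did not turn, with 7 lost and 3 gained, whereas Tcf4 had 9 and 10 and Tcf12 had 6 and 17. For Id1 these were 4 and 8, for Id2 3 and 4 and for Id3 2 and 7. Between the single positive stages 24 regions of the E protein genes were called at SP4 and not at SP8 (14.5% beside 14.6%) and 12 the other way (7.23% beside 9.24%), and at the Id genes 12 and 13.

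**Figure D2:**
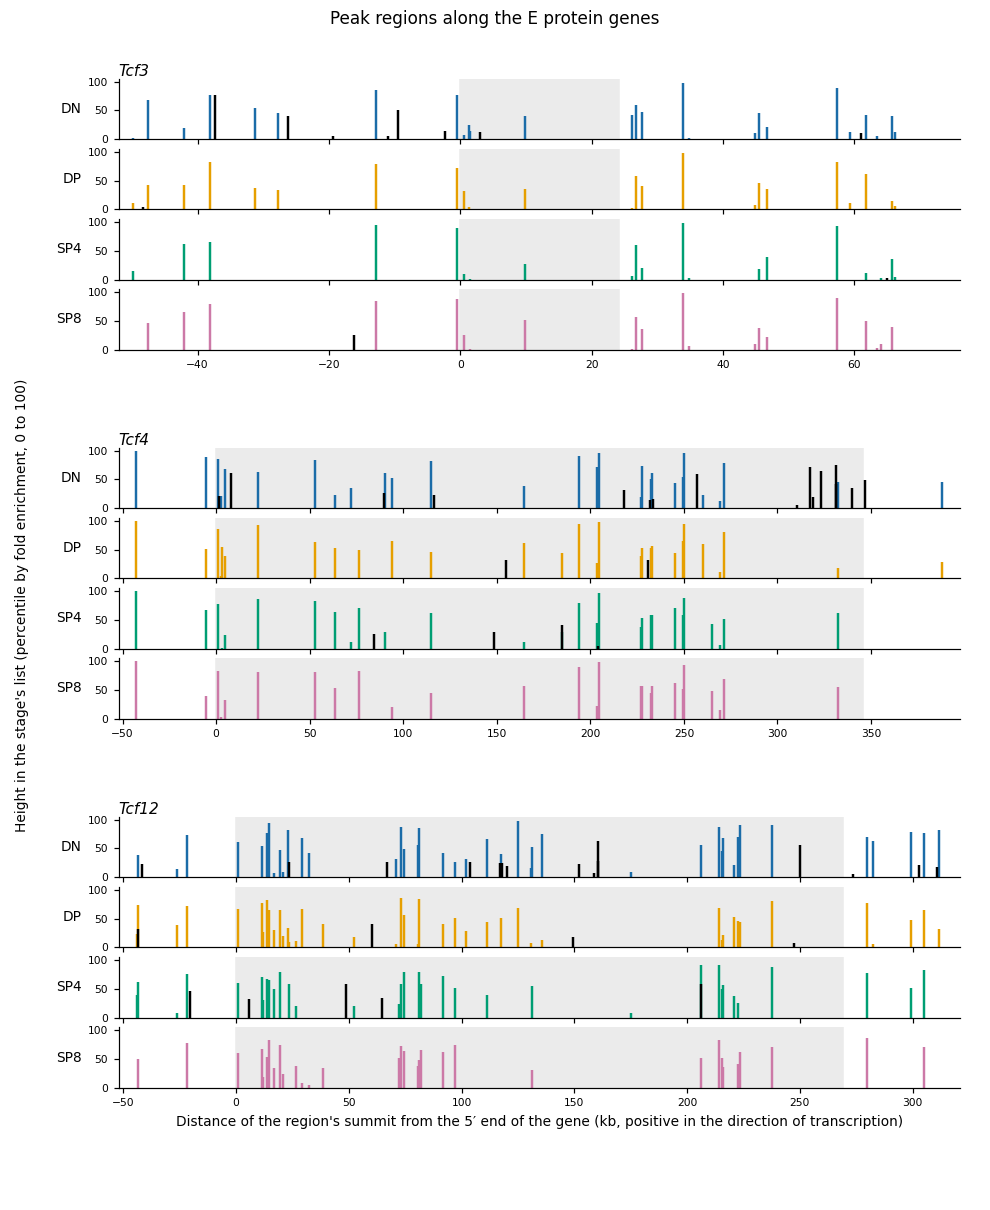
Height of every merged region (percentile by fold enrichment within the list of the stage, vertical axis, 0 to 100) against the distance of its summit from the 5′ end of the gene (kb, horizontal axis, positive in the direction of transcription) for Tcf3, Tcf4 and Tcf12, with a line per stage; grey marks the gene body and black bars are regions called at that stage alone. DN-only regions cluster beyond 300 kb of Tcf4, and the middle of Tcf12 holds tall DN bars that shrink or are missing at SP4 and SP8.

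Tcf12 encodes HEB, the E protein that is abundant in thymocytes, and makes a long product from its outer start sites and a short product, HEBAlt, from an inner start site. Its gene body at chr9:71842688-72111871 (minus strand, ENSMUSG00000032228.16) spans 269.184 kb, and 58 of its 73 regions lay within it. One broad region of 1815 bp, chr9:72110745-72112559, covered most of the outer start sites and was steady, at the 61.5 percentile at DN, 66.2 at DP, 59.7 in SP4 and 60.02 in SP8. The inner start sites, 215.5 kb downstream, were covered by a pair of regions that dipped at DP. The first (chr9:71896009-71896222) was at 67.8 at DN, 20.9 at DP, 56.3 in SP4 and 35.8 in SP8. The second (chr9:71896327-71896677) was at 45.3 at DN, 12.6 at DP, 50.5 in SP4 and 51.3 in SP8. At DP the peak of the second region did not cover its start site. Both had their lowest height at DP, with fold enrichments of 3.67 and 3.27 there. The intronic region just upstream of them in the direction of transcription, at 214.2 kb, had its lowest height at DP as well (86.7 at DN, 69.1 at DP, 91.5 in SP4, 83.6 at SP8).

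Other introns of Tcf12 held the largest differences between stages. The region at 125 kb (chr9:71986718-71987104) was at the 97.8 percentile at DN, where its fold enrichment was 24.7, and at 68.0 at DP, where it was 8.19, and it had no peak at SP4 or SP8. In contrast, the region at 206.4 kb (chr9:71905350-71905629) was called at 55.5 at DN, 91.2 at SP4 and 51.3 in SP8 and not at DP. Among regions outside the naming rule, picked after their values were seen, the one at 223.3 kb was at 91.0 at DN, 43.7 at DP and 61.7 in SP8 with no peak at SP4. Of 20 Tcf12 regions called throughout, 15 (75%) moved over more than 20 percentile points between stages, beside 51.8% of all such regions in the series.

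A further tall region of Tcf12, at 237.7 kb, was at 90.5 at DN, 79.9 at DP, 88.5 in SP4 and 71.6 in SP8. The region at -21.7 kb, outside the naming rule, moved less, from 72.2 at DP to 77.2 in SP8. Single-stage regions were of middle height, the tallest being at 160.4 kb for DN (63.0), at 60.3 kb for DP (40.5) and at 48.8 kb for SP4 (58.6). At the step from DP to SP8 the gene lost 20 of 73 regions and gained 5, and with equal numbers of peaks it lost 18 of 58 and gained 6. Its DN-only regions fell from 15 to 3 with equal numbers of peaks, and its share at DN from 76.7% to 56.9%, below the 75.9% at DP.

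Tcf3 encodes E2A, whose E12 and E47 forms arise by splicing. The gene (chr10:80409514-80433647, minus strand, ENSMUSG00000020167.14) is short at 24.134 kb, and 6 of its 39 regions lay in it. Mbd3, Uqcr11 and Mex3d lie within its downstream window, and 6 regions touched another gene. The start-site region at chr10:80433459-80434311 covered 5 of the 9 annotated coding start sites and was at the 77.3 percentile at DN, 72.6 at DP, 89.4 in SP4 and 87.9 in SP8. Its fold enrichments were 10.5, 9.31, 17.5 and 17.2, and the 2 single positive stages were thus the higher. At DN the region held a pair of peaks, and the one over the start sites was the lower, at the 52.8 percentile with a fold enrichment of 5.90, below DP. The start sites at 2.6 and 11.8 kb into the gene had no peak over them at any stage.

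The upstream side of Tcf3 had fewer peaks after DN. Of 15 upstream regions, 13 had a peak at DN, 8 at DP, 4 in SP4 and 5 in SP8, whereas the 18 downstream regions, where the other genes lie, had 16, 14, 13 and 13. Over all regions of the series, peaks were found in 75.7% at DN, 53.9% at DP, 58.3% in SP4 and 53.0% in SP8. When the lists were of equal length there were 12 upstream regions, of which 10 were called at DN, 7 at DP, 3 in SP4 and 5 in SP8. The tallest DN-only region of the locus was at -37.3 kb (chr10:80470765-80471122), at 76.8 with a fold enrichment of 10.4. Regions at -27.8 and -31.2 kb, outside the naming rule, were called at DN (45.8 and 54.3) and DP (32.8 and 37.0) and at neither single positive stage. A region at -47.6 kb was at 67.5 at DN, 41.7 at DP and 46.0 in SP8 with no peak at SP4. The region at -12.8 kb, also outside the rule, was tall throughout, at 84.6 at DN, 77.9 at DP, 94.1 in SP4 and 84.6 in SP8.

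Within the Tcf3 window the tallest region overall sat over the start site of Mbd3, a subunit of the NuRD complex, at 33.9 kb, with 96.6 at DN, 97.0 at DP, 98.0 in SP4 and 97.8 in SP8. Next was a region between genes at 57.3 kb (88.3, 82.8, 92.8 and 89.1 in the same order). Single-stage regions outside DN were low, at 3.38 for DP, 3.29 for SP4 and 25.5 for SP8.

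Tcf4, which encodes E2-2, is the longest of the 6 genes at 345.724 kb (chr18:69343356-69689079, plus strand, ENSMUSG00000053477.17), and 50 of its 54 regions lay in the gene body. No other coding gene falls within its window. Its 44 coding start sites form 10 groups more than 1 kb apart, and 4 of these groups had a peak over a start site at one or more stages. The tallest start-site region was the inner one at 249.9 kb (chr18:69592994-69593786), at the 95.7 percentile at DN, 93.9 at DP, 88.0 in SP4 and 93.4 in SP8. The outermost, at 1.0 kb (chr18:69344047-69344599), was at 86.1, 85.2, 77.7 and 82.9 in the same order. Both were open at every stage and lowest at SP4.

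Weaker start-site regions of Tcf4 varied more. The region at 4.9 kb went from 67.9 at DN to 39.4 at DP, 23.9 in SP4 and 33.2 in SP8. Its peak at SP4 covered no start site. The region at 3.0 kb was called at DP (54.8) and SP4 (0.405) only, that at 2.5 kb at DN (20.5), DP (3.42) and SP8 (3.58), and that at 269.3 kb stayed low, at 12.4 at DN, 10.7 at DP, 5.73 in SP4 and 14.4 in SP8. The start site in the region at 269.3 kb was itself covered only at DN, by a peak at the 7.25 percentile. No peak lay over the groups of start sites at 72.5, 156.0, 157.3, 176.1, 177.8 and 256.2 kb at any stage.

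Far upstream, at -42.7 kb, lay the tallest region of all 6 loci (chr18:69300493-69300980), at 99.9 at DN, 99.2 at DP, 99.9 in SP4 and 99.95 in SP8, with fold enrichments of 36.3, 30.02, 39.6 and 41.7. Ranked by q-value it was lower, at 94.7, 90.2, 97.0 and 97.1. The Mbd3 start-site region in the Tcf3 window was then above it (99.95, 99.98, 99.97 and 99.97). The intronic region at 204.7 kb was also tall throughout, at 95.6, 97.1, 95.8 and 98.0. Against these, the region at 76.2 kb (chr18:69419490-69419756) had no peak at DN and rose to 49.1 at DP, 70.0 in SP4 and 83.1 in SP8. It was the reverse of the region at 331.1 kb, which was called at DN alone (74.3). Beyond 300 kb, a limit chosen after the values were seen, 8 of 10 regions were called only at DN, while 2 had a peak at DP, 1 in SP4 and 1 in SP8, and with equal numbers of peaks 5 of 7 were DN-only. With equal numbers of peaks the DN-only regions of Tcf4 numbered 8 of 45 in place of 16 of 54.

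**Figure D3:**
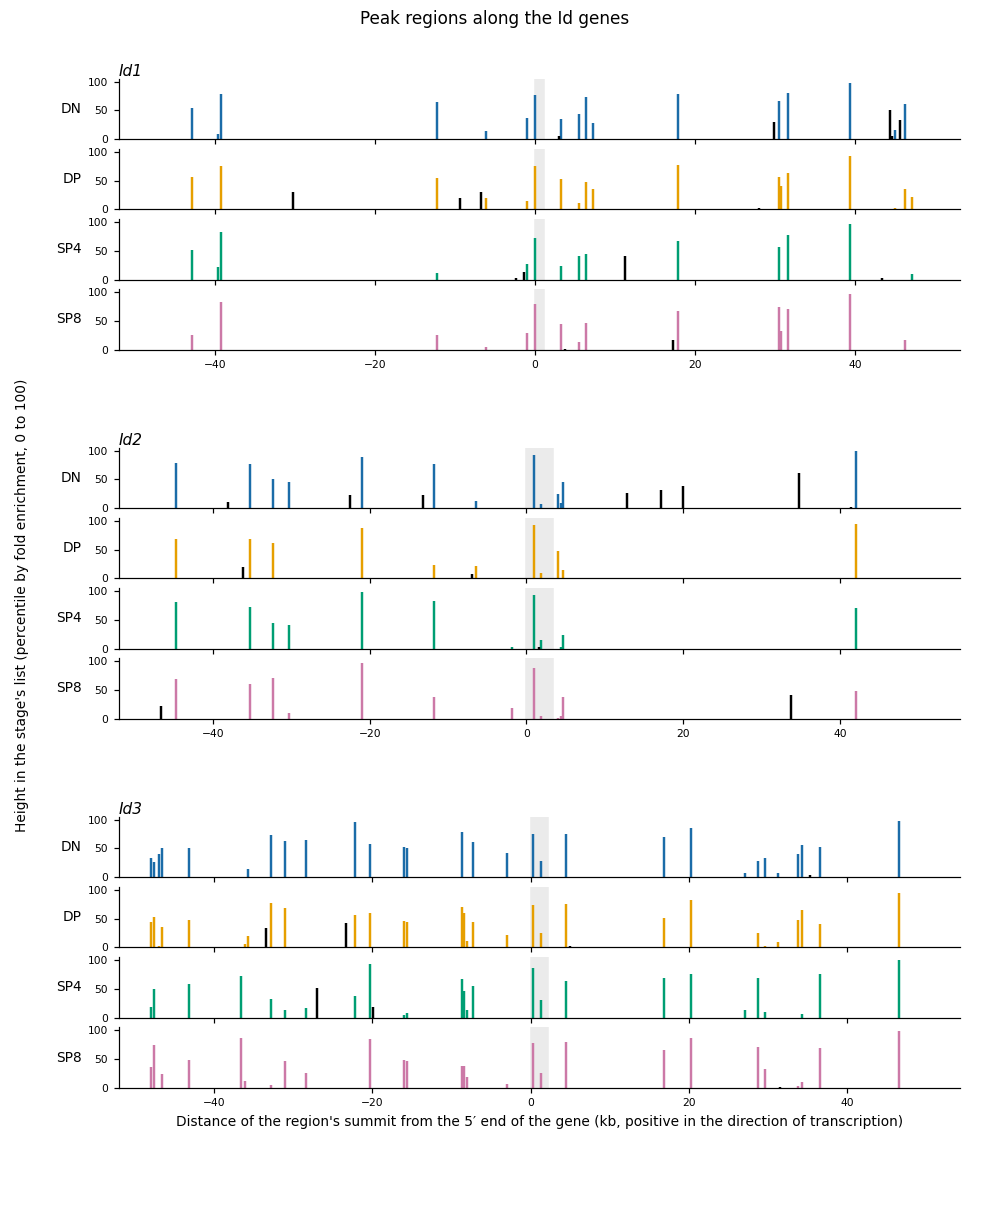
The same plot of region height (percentile, vertical axis) against distance from the 5′ end (kb, horizontal axis) for Id1, Id2 and Id3, with a line per stage, the gene body in grey and single-stage regions in black. All 3 gene bodies are short, and the regions lie mostly outside them; Id3 has the most regions on its upstream side (24 of 40) and 1 DN-only region.

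Id3 is the Id gene most tied to T cell receptor signals. It spans 2.259 kb at chr4:136143497-136145755 (plus strand, ENSMUSG00000007872.3), and its window held 39.1 regions per 100 kb, more than 99.4% of 20807 coding genes (median 13.9). No peak covered its single coding start site at base 136143497. The nearest region began 101 bp downstream of it (chr4:136143598-136144287) and was at 75.4 at DN, 74.3 at DP, 85.4 in SP4 and 77.3 in SP8, so its height differed little between stages.

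Upstream of Id3 the regions changed hands between stages. The region at -22.2 kb (chr4:136121192-136121470) fell from 95.6 at DN to 55.9 at DP and 37.7 at SP4 and had no peak at SP8, and its fold enrichments were 21.2, 6.13 and 4.74. The region at -36.5 kb (chr4:136106760-136107185) had no peak at DN or DP and was at 72.0 at SP4 and 86.3 in SP8. A region at -20.2 kb, outside the naming rule, was at 57.6 at DN, 60.0 at DP, 93.9 in SP4 and 84.7 in SP8, so that it stood next to one that was tallest at DN. The region at -32.8 kb, also outside the rule, had the opposite course, at 73.1 at DN, 76.3 at DP, 32.2 in SP4 and 4.86 in SP8.

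Of the 24 upstream regions of Id3, 16 had a peak at DN, 20 at DP, 17 in SP4 and 16 in SP8, and none was called at DN alone. Regions called throughout had a median range of 34.9 percentile points between stages, the widest of the 6 genes, beside 20.8 for all such regions. The tallest region of the window, at 46.6 kb, lay in or just upstream of E2f2, a cell cycle factor gene, and was at 97.3 at DN, 93.9 at DP, 99.4 in SP4 and 99.1 in SP8. A region between the genes at 20.3 kb was at 86.2, 82.2, 75.7 and 87.1 in the same order.

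Id2 spans 3.342 kb at chr12:25093799-25097140 (minus strand, ENSMUSG00000020644.9) and had 27 regions. Its start-site region (chr12:25095830-25096539) was at 91.7 at DN, 92.1 at DP, 92.7 in SP4 and 88.9 in SP8, the tallest start-site region among the Id genes. It covered the inner start sites, at 1.0 kb, and the outermost had no peak over it. The region at -20.9 kb was higher in the single positive cells, at 88.3 at DN, 87.0 at DP, 97.3 in SP4 and 97.0 in SP8. In contrast, the region at 42 kb (chr12:25054500-25055299), inside or just upstream of Kidins220, fell from 98.5 at DN and 95.1 at DP to 71.2 at SP4 and 47.9 in SP8.

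Yet another course was seen at -11.8 kb of Id2 (chr12:25108740-25109255), where the height was 77.0 at DN, 23.0 at DP, 83.0 in SP4 and 37.0 in SP8, so that DN and SP4 were high and DP and SP8 low. Its fold enrichments were 10.4, 3.74, 14.0 and 4.80. The tallest DN-only region of the locus was at 34.7 kb (61.9), near Kidins220. On the downstream side, 9 of 10 regions had a peak at DN against 3 at DP, 3 in SP4 and 5 in SP8, and with equal numbers of peaks 5 of 6 had one at DN against 3 at DP, 3 in SP4 and 5 in SP8. With equal numbers of peaks the DN-only regions of Id2 fell from 8 to 1.

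Id1 spans 1.16 kb at chr2:152736251-152737410 (plus strand, ENSMUSG00000042745.9) and shares its window with H13, Mcts2, Cox4i2 and Bcl2l1, the gene of the survival factor Bcl-xL, so that 12 of its 34 regions touched another gene. Its start-site region (chr2:152736059-152736735) was steady, at 75.8 at DN, 74.8 at DP, 72.0 in SP4 and 79.8 in SP8. The tallest region, between genes at 39.3 kb, was steady too, at 97.9, 91.8, 95.6 and 97.0. Differences were found at -12.2 kb (chr2:152723694-152724272), with 65.0 at DN, 53.9 at DP, 11.7 in SP4 and 25.1 in SP8, and at 46.2 kb near Bcl2l1, with 61.0 at DN, 35.1 at DP and 17.6 in SP8 and no peak at SP4. Of its 12 regions called throughout, 7 were tallest at DN and none at SP4.

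**Figure D4:**
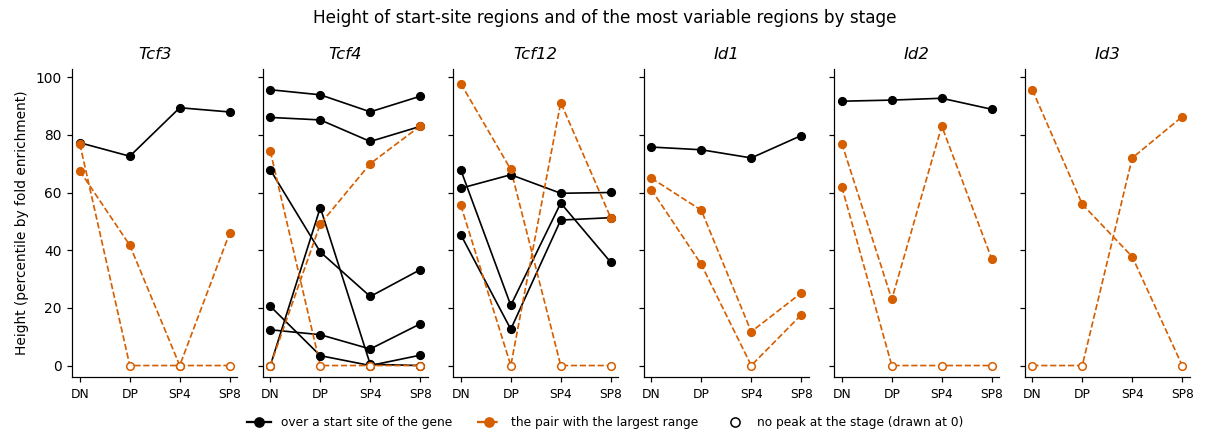
Height (percentile by fold enrichment, vertical axis) at DN, DP, SP4 and SP8 of the regions over a start site of each gene (black) and of the pair of regions with the largest range (orange, dashed); lines join the values of 1 region, and open points mark stages without a peak, drawn at 0. The merged start-site regions of Tcf3, Id1 and Id2 stay above the 70th percentile (at DN the Tcf3 peak over the start sites itself was at 52.8), Id3 has none, and the variable regions run in both directions.

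Over all 6 genes, 12 regions lay over a coding start site, and 5 of the 6 genes had such a peak at every stage. Of 20722 coding genes on chromosomes 1 to 19, 60.2% had a peak over a start site at DN, 57.1% at DP, 55.2% in SP4 and 55.8% in SP8. The genes of the partners, targets and inducers of the family were counted in the same way, from lists chosen with earlier results of these data known. Among 15 basic helix-loop-helix partners and co-regulators, 12 had a peak over a start site at DN, 8 at DP, 6 in SP4 and 6 in SP8. Tal1, Lmo2, Ldb1, Cbfa2t3, Cbfa2t2 and Hey1 were called at every stage. The Notch target Hes1, Tal2, Lmo1, Runx1t1 and Ascl2 were called at DN alone, Twist1 at DN and DP, Lyl1 at DP alone, and Id4 and Myod1 at none.

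Of 15 known targets of E proteins in thymocytes, 13 were called at DN, 13 at DP, 11 in SP4 and 12 in SP8. Dntt, which encodes the polymerase that adds bases at receptor gene joints, was called at DN and DP only. Notch3 and Gfi1b were called at no stage. The start sites of Ptcra, Rag1, Rag2, Il7r, Gata3 and Cd4 were called throughout, and so were 12 of 13 genes that act upstream of Id genes, the exception being Egr3 at all stages.

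Markers of the sorted populations were checked by the same count. Zbtb7b, the factor gene of the CD4 lineage, had a start-site peak at SP4 alone, and Hes1 at DN alone. The DN list had 6 of 6 markers at DN and 5 at the other stages, the DP list 6, 6, 5 and 6 in stage order, the SP4 list 4, 4, 5 and 4 of 5, and the SP8 list 6 of 6 at all stages, so that these lists hardly separated the stages. T cell markers had 5 of 6 at every stage, without Bcl11b. Among other cell types, B cell markers had 3 of 6 at DN and 2 elsewhere (Pax5 at DN alone, Cd79b and Ebf1 at every stage, Cd79a and Ms4a1 among those at none), plasmacytoid dendritic 5 at DN and DP and 4 elsewhere (Spib at DN and DP, Irf8 at every stage, Siglech at none), conventional dendritic 2 at DN and 1 elsewhere (Itgax at DN alone, Flt3 at every stage, Zbtb46 at none), myeloid 3 at DN and 2 elsewhere (Lyz2 at DN alone, Itgam and Cebpa at every stage, Csf1r, Cd14 and Spi1 at none), and natural killer and innate lymphoid 4 at DP and 3 elsewhere (Eomes at DP alone, Tbx21, Il18r1 and Zbtb16 at every stage, Ncr1 and Klrb1c at none). Gamma delta T cell markers had 2 at SP4 and 3 elsewhere (Trdc at none), erythroid markers 1 of 4 (Klf1 at none), endothelial 2 to 3 of 6 (Cdh5 at none), fibroblast 2 (Col1a1 at none) and thymic epithelial 1 to 2 (Foxn1 at none). The part of such cells in the DN-only regions was not tested.

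E-boxes, the elements that E proteins bind, were found within the 100 bp around the summit in 99 of the 267 regions (37.1%, 31.5 to 43.0), beside 32.4% of all regions. At the Id genes this was 44 of 101 (43.6%, 34.3 to 53.3) and at the E protein genes 55 of 166 (33.1%, 26.4 to 40.6). Id3 had 20 of its 40 regions with an E-box, Id2 11 of 27, Id1 13 of 34, Tcf12 30 of 73, Tcf3 11 of 39 and Tcf4 14 of 54. Of the letters, CAGGTG was found in 19.8% of Id gene regions and 12.05% of E protein gene regions beside 14.7% of all regions, and CAGCTG in 17.8% and 12.7% beside 11.7%.

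**Figure D5:**
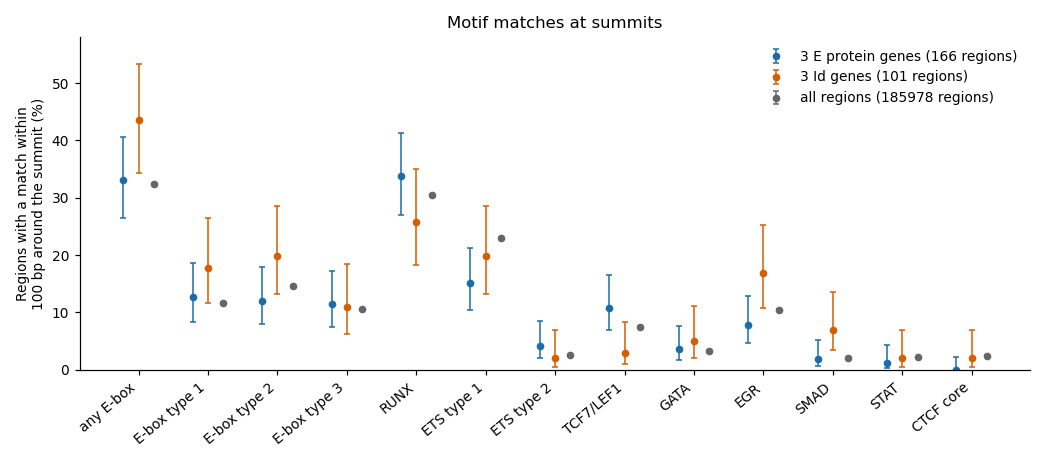
Share of regions with an exact motif match in the 100 bp around the summit (percent, vertical axis) for the E protein genes, the Id genes and all regions of the series; points are shares and whiskers 95% Wilson intervals, and E-box types 1 to 3 and ETS types 1 and 2 follow the order in which the motifs are listed in the text. Id gene regions lie above all regions for any E-box (43.6% beside 32.4%) and below them for the TCF7 and LEF1 motif (2.97% beside 7.55%).

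By stage set, E-boxes were most frequent in the regions shared by DN and DP alone. They were found in 15 of 21 such regions (71.4%, 50.04 to 86.2), in 6 of 6 at the Id genes and 9 of 15 at the E protein genes, beside 56.1% of all DN and DP regions of the series. In regions called only at DN the share was 42.6% (30.3 to 55.8) beside 41.5%, and in those called throughout 32.7% (24.2 to 42.4) beside 29.7%. Regions with a peak at SP4 or SP8 and none at DN were lower, at 9 of 43 (20.9%, 11.4 to 35.2) beside 19.6%, and among these 1 of the 5 called at SP4 and SP8 alone held an E-box, beside 16.7%. The order of the sets at the 6 genes was thus that of the whole series.

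Other motifs stayed near the background or differed between the families as pooled, and the genes within a family were not alike. The EGR motif was found in 17 Id gene regions (16.8%, 10.8 to 25.3) and 13 E protein gene regions (7.83%, 4.63 to 12.9), beside 10.4% of all regions. Id3 had the lowest share among the Id genes, at 12.5%, with Id1 at 17.6% and Id2 at 22.2%. Tcf3 was at 12.8%, Tcf4 at 9.26% and Tcf12 at 4.11%. The SMAD motif was found in 7 Id gene regions (6.93%, 3.40 to 13.6) and in 3 E protein gene regions (1.81%), beside 2.06%. Its share was 5.88% for Id1, 7.41% for Id2 and 7.5% for Id3. The TCF7 and LEF1 motif went the other way, at 10.8% of E protein gene regions and 2.97% of Id gene regions (1.02 to 8.37) beside 7.55%. Within the E protein genes it was at 13.0% for Tcf4 and 13.7% for Tcf12 but at 2.56% for Tcf3. Within the Id genes it was at 2.94% for Id1, 7.41% for Id2 and 0% for Id3. The ETS motif CAGGAA was less frequent at the 6 genes, at 16.9% (12.8 to 21.8) beside 23.0%, whereas the other ETS form, CCGGAA, was at 3.37% (1.78 to 6.28) beside 2.65%. The RUNX motif was at 30.7% beside 30.5%. In 200 bp around the summit, Tcf3 no longer stood apart for the TCF7 and LEF1 motif. It was at 17.9%, beside 18.5% for Tcf4, 20.5% for Tcf12 and 16.6% of all regions. The Id genes stayed lower, at 8.91%. EGR shares there were 29.7% at the Id genes and 19.3% at the E protein genes, beside 20.2% of all regions. Tcf3 was then the highest of the 6 genes, at 38.5%, with Id2 at 37.0%, Id3 at 30% and Id1 at 23.5%. These counts describe letters and not bound factors.

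The genes most like each of the 6 in how their regions divided over the 15 possible sets of stages were found by the Bray-Curtis distance, over genes with at least 10 regions that shared none with the gene compared. For Tcf12 this was Jazf1 (distance 0.101, 94 regions), for Tcf3 Card14 (0.0845), for Tcf4 Map3k4 (0.0741), for Id1 Rybp (0.121), for Id2 Adam1b (0.0370) and for Id3 Rapgef3 (0.114). The median distance over all candidates ran from 0.309 for Tcf3 to 0.358 for Id3. Jazf1 had a peak in 73.4% of its regions at DN, 69.1% at DP, 53.2% in SP4 and 36.2% in SP8, the same falling order as Tcf12. The next nearest were Adat3 and Klf16 for Tcf3, Zmym4 and Ivd for Tcf4, Def8 and Tff1 for Tcf12, Amdhd2 and Maco1 for Id1, Catsper1 and Cst6 for Id2, and Rad9b and Abl1 for Id3.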

How the data were processed

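ATAC-seq was done on thymocytes sorted into 4 stages from 4 mice, 16 libraries in all. The authors used BWA to align paired reads to mm10 and Picard to take out duplicates, filtered for unique, proper pairs of high mapping quality, down-sampled the libraries to their median depth, combined the mice by stage and called narrow peaks with MACS2 at a false discovery rate of 5%, with reads shifted and extended around the Tn5 cut. MACS2 and mm10 are also named in the submitters' processing notes. The deposited lists hold the start, end and summit of each peak, its fold enrichment (a ratio to the local background, by the authors) and its −log10 q-value (as deposited by the authors); they cover chromosomes 1 to 19. The depth per library is not in the lists and was not used here, and pooling hides differences between mice.

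Peaks were merged over stages where they shared at least 1 base (Python 3.11.15, pandas 2.3.3, numpy 2.4.6). Genes and start sites of coding transcripts came from GENCODE M21, and sequence from the GRCm38 assembly. Heights were percentiles by fold enrichment within a list. Intervals are 95% Wilson intervals (scipy 1.17.1), for counting error only; plots were drawn with matplotlib 3.10.9. Regions were named by rule: those over a coding start site, the 2 others of highest mean height, the 2 with the largest range (0 where not called) and the highest single-stage region of each stage; exceptions are marked in the text. The 3 most alike genes were those of smallest Bray-Curtis distance over the 15 stage sets. Merging, stage sets, motif search and intervals were tested on simulated data. The genes, the 18 gene and marker lists and the motifs were chosen with earlier results of these data known. Gata1 and Alas2 of the erythroid list lie on the X chromosome and were not analysed here. Some genes counted in the lists are not reported here by name. Alternatives were a q-value of at most 0.001, an overlap of 50% of the shorter peak, 104411 peaks from each list, windows of 0, 20 and 100 kb, leaving out regions that touch another gene, heights by q-value, start sites of all transcripts, and other windows for motifs.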

Additional observations from a re-analysis of the deposited data

How the results depend on the processing

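Every value comes from 1 pooled list per stage, so no spread between mice is known and no result was tested. No paired analysis was possible because the reads of the mice were pooled before peak calling, and for the same reason leaving out 1 mouse was not possible either. Small counts per gene limit what shares can show.

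A q-value of at most 0.001, an overlap of 50% of the shorter peak, windows of 20 and 100 kb, leaving out regions that touch another gene, heights by q-value and start sites of all transcripts left each share within its counting interval, or each height within the quartiles of the start-site regions. With equal numbers of peaks from each list, the share of E protein gene regions moved to 65.5% at DN, 71.2% at DP and 57.6% in SP8, and that called only at DN to 12.2%; at the Id genes the last was 6.45%. Over the 6 genes, the share called at DN and not DP became 13.4% and its reverse 21.1%, which turned the direction, beside 17.1% and 16.4% of all regions, and the share called at SP8 and not SP4 became 13.8%. The fewer DN peaks that remain are a part of this construction. Within gene bodies the Id genes have only 6 regions, of which 83.3% were called at DN, 83.3% at DP, 100% in SP4, 83.3% at SP8 and 83.3% at all stages, and 0% only at DN. The share of regions with an E-box rose to 50.6% in 200 bp around the summit (48.5% of all regions) and to 61.4% over whole regions (56.5% of all regions), and was 38.1% without regions over a start site.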

Other observations

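The longest span without any region was 40.7 kb downstream of Tcf4 and 30.9 kb in the introns of Tcf12, and 16.0 kb at Tcf3, 17.6 kb at Id1, 13.7 kb at Id2 and 11.7 kb at Id3. The density of regions was 33.6 per 100 kb at Id1, 31.4 at Tcf3, 26.1 at Id2, 19.8 at Tcf12 and 12.1 at Tcf4, and the values of Id1 and Tcf3 were above those of 97.3% and 95.4% of 20807 coding genes. Of the 98 regions called throughout, 34 were tallest at DN, 18 at DP, 27 in SP4 and 19 in SP8 (34.7%, 18.4%, 27.6% and 19.4%), beside 35.0%, 21.5%, 23.8% and 19.7% of all such regions. Id2 had 5 of its 9 tallest at SP4 and none at DP.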
